A study of Mus musculus with 12 samples.

Results

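The genes that encode the subunits of the mitochondrial respiratory chain and of ATP synthase were followed in the adrenal medulla of colonized and germ-free mice given saline or insulin. Members were all genes on the array whose symbol begins with Nduf followed by a, b, c, s or v and a digit (complex I), is Sdha, Sdhb, Sdhc or Sdhd (complex II), begins with Uqcr (complex III), begins with Cox followed by a digit from 4 to 8 (complex IV) or begins with Atp5 (ATP synthase, complex V). The rule uses names alone and no measured value. It gave 84 of 19505 named genes, each with 1 probe set: by symbol, 37 of complex I, 4 of complex II, 8 of complex III, 18 of complex IV and 17 of complex V. The symbol alone set the complex, so Ndufa4 and Ndufa4l2 are counted under complex I and Cox7a2l under complex IV. Whether each protein belongs to the complex its symbol names was not checked. The subunits encoded by the mitochondrial genome were not analysed here, nor were subunits whose symbols the rule does not take in, other than those given as a separate list.

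Dissected adrenal medullae came from 12 male C57Bl6 mice, 1 array per animal, in 4 groups of 3: normally colonized given saline, normally colonized given insulin, germ-free given saline and germ-free given insulin. All were fasted for 3 h and injected intraperitoneally with regular human insulin (Humulin, 2 IU/kg) or an equal volume of saline, and were killed 90 min later. The age of the mice and the housing of the groups are not given in the labels. The study asked how the adrenal response to insulin-induced low blood glucose differs in mice without gut microbes.

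Complex I (NADH dehydrogenase) and complex II (succinate dehydrogenase, which is also an enzyme of the citric acid cycle) pass electrons to ubiquinone. Complex III hands them on to cytochrome c, and complex IV (cytochrome c oxidase) passes them to oxygen. Complexes I, III and IV pump protons out of the matrix, and ATP synthase lets them back to make ATP. Chromaffin cells of the medulla need ATP to load and release catecholamines, and cells of the adrenal cortex run part of steroid synthesis inside mitochondria. Several complex IV subunits come as isoform pairs: Cox7a1 and Cox8b are the forms of heart, skeletal muscle and brown fat, and Cox7a2 and Cox8a are the forms of most other tissues. In brown fat the proton gradient is spent as heat through the uncoupling protein Ucp1.

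Values are log2 intensities after the authors' RMA normalization, so a difference of 1 is a 2-fold difference. They are compared for the same gene across arrays and not between genes. Arrays of one group correlated across named probe sets at r = 0.954 to 0.988 in colonized saline mice and at 0.987 or more in the other groups. The negative control probe sets had means of 4.92 to 5.04 on colonized arrays and 5.46 to 5.67 on germ-free arrays, and their 95th percentile was 7.21 to 7.48 on colonized and 8.23 to 8.41 on germ-free arrays. The labels do not say whether the 12 arrays were processed as 1 batch. Of the members, 67 lay above this percentile of the array (called the negative control level here) on all 12 arrays. Where no array of a group was above it, a fold against that group is given as at least the fold against the level itself. Such a bound takes values as comparable between arrays and makes no allowance for the higher level on germ-free arrays. Cox4i2, Cox6a2, Cox6b2, Cox7b2 and Cox8c lay below the negative control level on every array, so their differences have little signal behind them.

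The tissue pieces held other cell types in amounts that differed between arrays. Chromaffin markers (12 genes measured) and adrenal cortex markers (10 genes) were present in all groups. The mean of 9 adipocyte markers was 7.66, 10.82 and 9.73 in colonized saline animals 1, 2 and 3, ran from 7.24 to 9.63 after insulin in colonized mice, from 9.55 to 10.17 in germ-free saline mice and from 10.48 to 10.96 in germ-free insulin mice. The mean of 10 brown adipocyte markers ran from 6.17 to 8.11, from 6.13 to 6.49, from 7.21 to 7.79 and from 8.45 to 8.56 in the same order of groups. The chromaffin marker mean ran in the other direction, from 11.19 to 11.69 in colonized insulin mice and from 10.25 to 10.74 in germ-free insulin mice. Liver markers reached a mean of 11.33 in colonized saline animal 2, intestinal markers ran from 7.60 to 9.40 in germ-free saline mice against at most 5.50 elsewhere, and pituitary markers ran from 6.99 to 8.05 in germ-free insulin mice against at most 5.85 elsewhere. None of 8 skeletal muscle markers passed the 95th percentile of the negative controls on all 3 arrays of any group. In such pieces, fewer cells of a type and less RNA per cell cannot be told apart. The part that these other cells have in the differences described here was not tested, but the calls of members were recomputed with marker means as covariates.

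Promoter windows of 250 bases before the gene start (RefSeq, assembly GRCm38.p6) were available for 69 of the 84 members. Nuclear respiratory factor 1 (NRF1), the ETS-family factor GABPA (also called NRF2) and the estrogen-related receptors (ERR) are the best known activators of these genes. The letters GCGCANGCG for NRF1, CCGGAAG for GABPA and AAGGTCA for an ERR half-site were searched on both strands. The NRF1 letters stood in 14 of the 69 windows (20.3%), against 8.43% of 15691 named genes with a window. The GABPA letters stood in 12 (17.4%, against 10.5%) and the ERR letters in 5 (7.25%, against 4.12%). By complex, the NRF1 letters were in 6 of 33 windows of complex I, 2 of 3 of complex II, 0 of 5 of complex III, 1 of 13 of complex IV and 5 of 15 of complex V. A match of letters is a description and not evidence of binding, and a window without one says only that these letters are not in it. The windows below belong to members that differed between germ-free and colonized mice after insulin. The first pair belongs to the members with the largest difference and holds none of the motifs. The second pair holds both the NRF1 and the GABPA letters, not overlapping, and these are in capitals.
Cox7a1, chr7:30183921-30184170, plus strand: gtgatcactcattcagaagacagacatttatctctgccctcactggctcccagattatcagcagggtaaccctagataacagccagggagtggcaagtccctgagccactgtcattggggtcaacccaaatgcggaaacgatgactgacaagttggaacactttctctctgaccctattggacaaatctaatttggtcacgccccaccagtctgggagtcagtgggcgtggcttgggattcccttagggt
Cox8b, chr7:140900447-140900696, minus strand: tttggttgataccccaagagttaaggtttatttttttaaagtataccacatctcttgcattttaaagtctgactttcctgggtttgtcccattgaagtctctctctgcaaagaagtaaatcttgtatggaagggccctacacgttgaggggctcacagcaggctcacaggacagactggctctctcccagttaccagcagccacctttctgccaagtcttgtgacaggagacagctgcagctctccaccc
Sdhd, chr9:50603850-50604099, minus strand: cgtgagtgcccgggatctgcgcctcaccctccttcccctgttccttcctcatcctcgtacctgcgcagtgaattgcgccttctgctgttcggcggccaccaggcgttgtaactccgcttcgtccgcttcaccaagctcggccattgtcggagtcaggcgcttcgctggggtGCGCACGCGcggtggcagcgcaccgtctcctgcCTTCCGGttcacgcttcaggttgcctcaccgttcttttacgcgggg
Atp5h, chr11:115419920-115420169, minus strand: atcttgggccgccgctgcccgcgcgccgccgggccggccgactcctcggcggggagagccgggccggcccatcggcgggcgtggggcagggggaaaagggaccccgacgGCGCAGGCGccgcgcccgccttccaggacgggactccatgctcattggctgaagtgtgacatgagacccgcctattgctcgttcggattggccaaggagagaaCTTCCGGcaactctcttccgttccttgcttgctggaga

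Across all members the levels after insulin stood a little lower than after saline in colonized mice and a little higher in germ-free mice. Each array was summarized by the median over the 84 members of the deviation from the gene's own mean over the 12 arrays, on the log2 scale. This median was -0.117, 0.223 and 0.0183 in colonized saline animals 1, 2 and 3, and -0.124, -0.0643 and -0.120 in colonized insulin animals 4, 5 and 6. It was -0.0509, -0.0173 and -0.100 in germ-free saline animals 7, 8 and 9, and 0.128, 0.0794 and 0.140 in germ-free insulin animals 10, 11 and 12. The germ-free insulin arrays were all above the germ-free saline and the colonized insulin arrays, while the colonized saline arrays spread from near the lowest to the highest value. Colonized saline animal 2 had the highest value of all 12 arrays for 41 of the 84 members, and animal 1 of the same group had the lowest for 20. Germ-free insulin animal 12 was highest for 19.

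**Figure D1:**
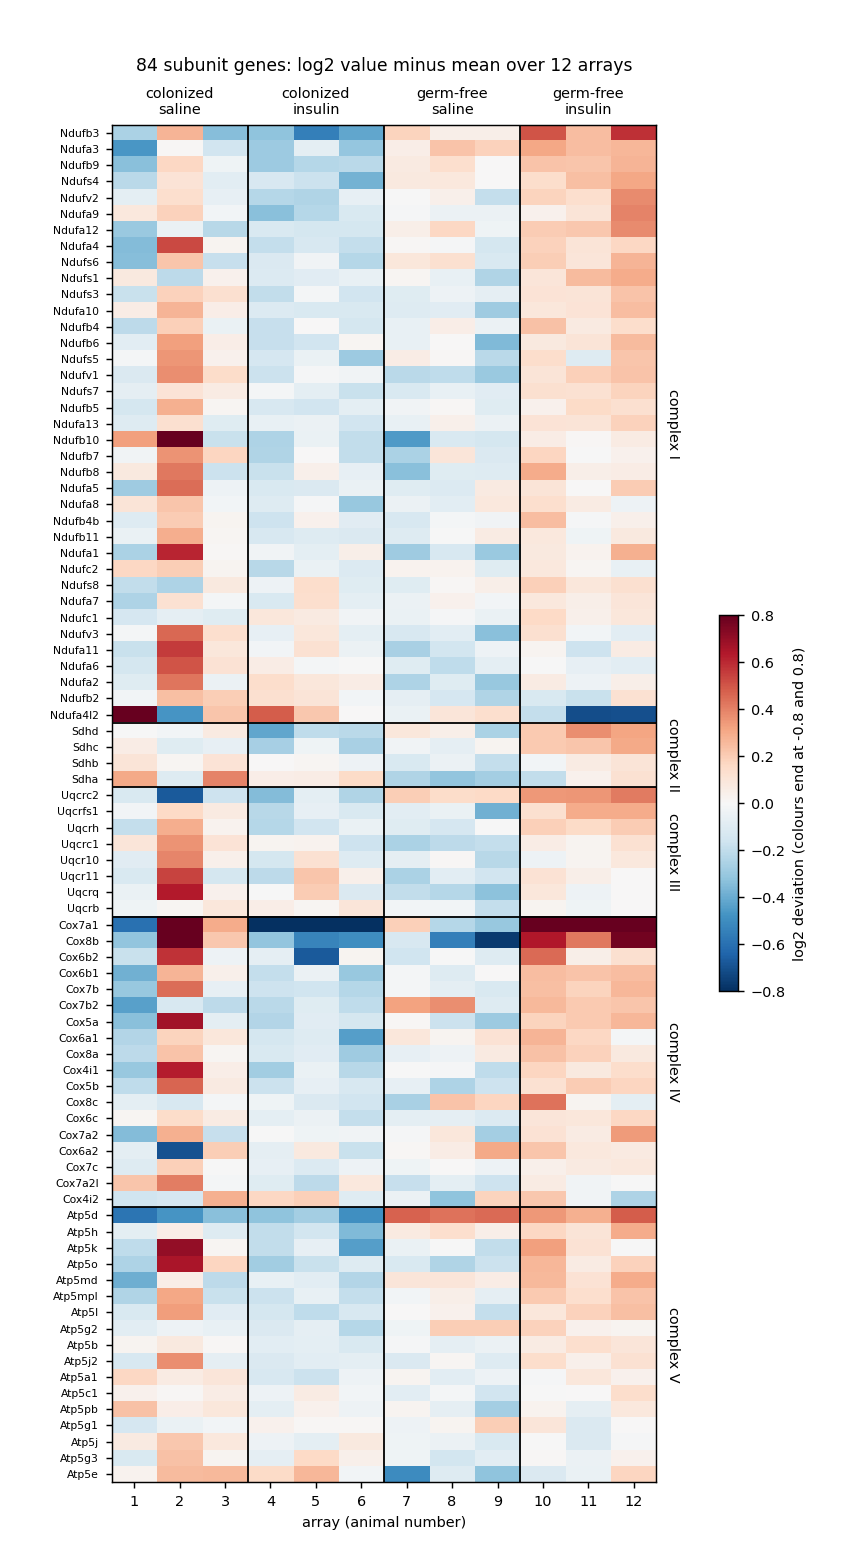
Log2 value of each of the 84 subunit genes (rows, by complex and within it by the difference between germ-free and colonized mice after insulin) on each array (columns, by animal number and group), minus the gene's mean over 12 arrays, with colours ending at 0.8 on either side. The 3 germ-free insulin arrays are above the gene mean for 74, 65 and 74 of the 84 members, colonized saline animal 2 for 68, and the colonized insulin arrays for 12, 26 and 12.

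**Figure D2:**
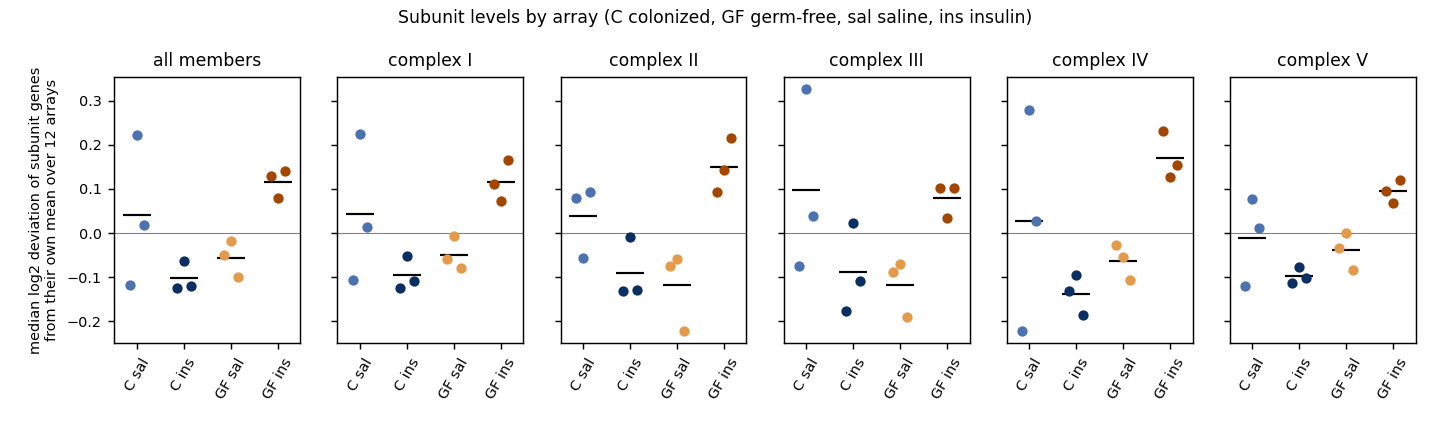
Median over subunit genes of the log2 deviation from the gene's own mean over 12 arrays, for all 84 members and for each complex; points are arrays and bars are group means of 3. In each panel the germ-free insulin arrays lie above the germ-free saline arrays, and for all members the colonized saline arrays have an SD of 0.171, against 0.0320 to 0.0418 in the other groups.

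The first comparison asked whether insulin changed the subunit genes in colonized mice. The median difference between insulin and saline was -0.154 over the 84 members, 70 of which were below 0, against a median of 0.0048 over all named probe sets, 51.0% of which were above 0. No member passed an adjusted p of 0.05 in limma, where 0.153% of all 19572 named probe sets did. At an unadjusted p under 0.05, 11 members were lower and 0 higher, and 5.60% of all named probe sets were lower. In 17 members all 3 insulin arrays lay below all 3 saline arrays, against 6.55% of all named probe sets, and in 2 they lay above, against 7.53%. By complex the medians were -0.164 (complex I), -0.132 (II), -0.166 (III), -0.196 (IV) and -0.130 (V). Without colonized saline animal 1 the count called was 1, and without animal 2 it was 0 and the median over the members was -0.0617, and with the brown adipocyte marker mean as a covariate it was -0.0048.

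In germ-free mice the differences had the other sign. The median difference between insulin and saline was 0.173 and 80 of 84 members were above 0, against a median of 0.0061 over all named probe sets, 51.6% of which were above 0. No member passed an adjusted p of 0.05 in limma, where 0.439% of all named probe sets did. At an unadjusted p under 0.05, 15 members were higher and 0 lower, and 3.78% of all named probe sets were higher. In 55 members all 3 insulin arrays lay above all 3 saline arrays, against 9.55% of all named probe sets, and in 1 they lay below, against 10.1%. The medians by complex were 0.168 (I), 0.266 (II), 0.239 (III), 0.203 (IV) and 0.128 (V), and all 4 genes of complex II, all 8 of complex III and all 18 of complex IV were above 0. Without colonized saline animal 1 or 2, which enter the estimate of the spread, 2 members were called. With the brown adipocyte marker mean as a covariate the median was 0.0318.

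The difference between both insulin effects, germ-free minus colonized, had a median of 0.312 over the members, and 77 of 84 were above 0, against a median of -0.0036 and 49.6% above 0 over all named probe sets. In 68 members (81.0%) the level after insulin was below that after saline in colonized mice and above it in germ-free mice, and this held for 25.5% of all named probe sets. No member passed an adjusted p of 0.05 for the difference in limma, where 0.0358% of all named probe sets did. At an unadjusted p under 0.05, 30 members had a higher difference and 0 a lower one, and 4.69% of all named probe sets had a higher one. Without colonized saline animal 1, 2 members were called. The lowest adjusted p values were 0.0838 for Cox7a1 and 0.134 for Cox8b. With the brown adipocyte marker mean as a covariate the median difference was 0.0374.

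**Figure D3:**
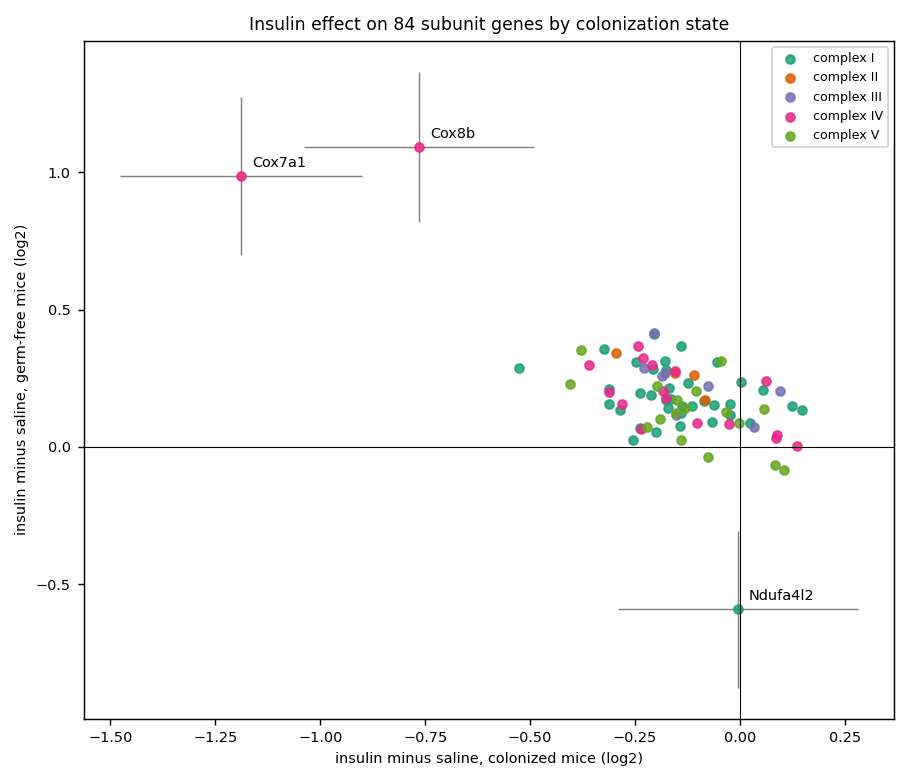
Difference between insulin and saline (log2) in colonized mice (horizontal axis) and germ-free mice (vertical axis) for the 84 subunit genes, coloured by complex, with standard errors drawn for the 3 named genes. Most points, 68 of 84, lie below 0 in colonized and above 0 in germ-free mice, and Cox7a1 (-1.19 and 0.99) and Cox8b (-0.76 and 1.09) lie apart from the rest.

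The comparison of germ-free with colonized mice was made separately after saline and after insulin. After saline 3 members were called at an adjusted p under 0.05: 1 was higher in germ-free mice, where 2.82% of all named probe sets were called higher, and 2 were lower, where 4.08% were. The members' median was -0.117 with 24 of 84 above 0, against -0.0399 and 44.1% over all named probe sets. All 3 germ-free arrays lay above all 3 colonized arrays in 8 members, against 11.0% of all named probe sets, and below in 17, against 16.4%. The count of 3 became 6, 5 and 5 without colonized saline animal 1, 2 or 3, and 1 without colonized insulin animal 4, germ-free saline animal 7 or 8, or germ-free insulin animal 10, 11 or 12. After insulin 13 members were called and all 13 were higher in germ-free mice, where 2.62% of all named probe sets were called higher and 5.15% lower. The median was 0.225 with 71 of 84 above 0, against -0.0321 and 44.6% over all named probe sets. All germ-free arrays lay above all colonized arrays after insulin in 52 members, against 12.0%, and below in 1, against 19.8%. The 13 comprised 6 genes of complex I, 2 of complex II, 1 of complex III, 2 of complex IV and 2 of complex V. The adipocyte and brown adipocyte marker means did not overlap between these groups either. Nor did those of the liver markers (7.33 to 9.24 in germ-free against 6.43 to 6.55 in colonized mice), the adrenal cortex markers (12.68 to 12.72 against 12.59 to 12.65), or the chromaffin and pituitary markers. With the adipocyte or the brown adipocyte marker mean as a covariate 0 of the 84 members were called. The median was 0.0921 with the adipocyte and -0.0339 with the brown adipocyte markers. The share of all named probe sets called in these fits is not given here, so this 0 is no result about the members. Because these marker means did not overlap between the groups, such fits cannot tell marker mean and colonization apart. The standard error of Atp5d was 0.10 without a covariate, 0.16 with the adipocyte and 0.21 with the brown adipocyte covariate. The differences of the 13 ran from 0.22 to 1.00 (adjusted p from 0.0675 to 0.545, limma) with the adipocyte covariate and from -0.24 to 0.95 (adjusted p from 0.290 to 0.981, limma) with the brown adipocyte covariate. With the brown adipocyte covariate the differences of all 13 except Sdhc and Uqcrc2 became smaller. Cox7a1 was at 1.00 and 0.26 with the adipocyte and the brown adipocyte covariate, and Ndufb9 at 0.22 and 0.02. Atp5d was nearly kept with the adipocyte covariate (0.72) and became smaller with the brown adipocyte one (0.57). Sdhc (0.53 and 0.59) and Uqcrc2 (0.80 and 0.95) became larger with both while their standard errors grew. The count also moved with single arrays: it was 24 without colonized saline animal 2, 8 without colonized insulin animal 5, 6 without germ-free insulin animal 10, 5 without colonized insulin animal 6, and 3 without colonized insulin animal 4, germ-free insulin animal 11 or germ-free insulin animal 12. Atp5d, Cox7a1 and Ndufb3 were called in all 12 fits that each left out 1 array.

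In complex I, 6 of 37 genes were higher in germ-free than in colonized mice after insulin: Ndufb3, Ndufa3, Ndufb9, Ndufs4, Ndufv2 and Ndufa12. Ndufb3, an accessory subunit of the membrane arm, measured 7.69, 8.21 and 7.60 in colonized saline mice, 7.61, 7.39 and 7.52 in colonized insulin mice, 8.11, 7.98 and 7.98 in germ-free saline mice and 8.44, 8.18 and 8.52 in germ-free insulin mice. After insulin the groups did not overlap and germ-free mice were higher by 0.88 ± 0.16 (log2, SE, 3 against 3 mice; adjusted p = 0.00767, limma). It was above the negative control level on 2 of 3 arrays in each of these groups and on none of the germ-free saline arrays. The level itself was about as much higher on germ-free arrays as this difference. After saline animal 2 of the colonized group lay above every germ-free array, and the difference was 0.19 ± 0.16 (adjusted p = 0.489, limma).

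Ndufa3 and Ndufa12, also accessory subunits, were higher in germ-free mice without overlap after both treatments. Ndufa3 measured 10.90, 11.38 and 11.21 in colonized saline mice, 11.08, 11.29 and 11.06 in colonized insulin mice, 11.42, 11.60 and 11.55 in germ-free saline mice and 11.68, 11.62 and 11.63 in germ-free insulin mice. The difference was 0.50 ± 0.13 after insulin (adjusted p = 0.0332, limma) and 0.36 ± 0.13 after saline, which did not pass (adjusted p = 0.109, limma). Ndufa12 had group means of 10.55 ± 0.12, 10.61 ± 0.01, 10.80 ± 0.10 and 11.01 ± 0.10 (SD, n = 3) in colonized mice after saline and after insulin and in germ-free mice after saline and after insulin. Its difference was 0.40 ± 0.10 after insulin (adjusted p = 0.0343, limma) and 0.25 ± 0.10 after saline (adjusted p = 0.162, limma).

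Ndufs4, a subunit of the matrix arm whose loss in mice causes a Leigh-like brain disease, measured 9.11, 9.06 and 8.86 in colonized insulin mice and 9.38, 9.48 and 9.55 in germ-free insulin mice, a difference of 0.46 ± 0.11 (adjusted p = 0.0289, limma). Ndufv2, which carries an iron-sulfur cluster of the NADH-oxidizing module, measured 10.05, 10.03 and 10.21 against 10.45, 10.41 and 10.65, a difference of 0.41 ± 0.11 (adjusted p = 0.0471, limma). Ndufb9 of the membrane arm measured 10.74, 10.80 and 10.81 against 11.25, 11.25 and 11.30, a difference of 0.48 ± 0.12 (adjusted p = 0.0294, limma). For none of these 3 genes did the groups overlap after insulin. After saline their differences were 0.12 ± 0.11, -0.05 ± 0.11 and 0.14 ± 0.12, in the same order, and all overlapped.

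Ndufa9 and Ndufa10 are the complex I genes in which the insulin arrays lay below the saline arrays in colonized mice and above them in germ-free mice, with no overlap in either. Ndufa10 measured 9.98, 10.20 and 9.98 in colonized saline mice and 9.82, 9.80 and 9.80 after insulin, and 9.82, 9.83 and 9.64 in germ-free saline mice and 10.02, 10.03 and 10.17 after insulin. Its difference of insulin effects was 0.56 ± 0.14 (adjusted p = 0.224, limma), which did not pass. Ndufa9 had a difference of 0.52 ± 0.16 (adjusted p = 0.331, limma). Ndufb10 had the lowest insulin difference of complex I in colonized mice, -0.53 ± 0.21 (adjusted p = 0.369, limma), and its saline values of 7.42, 8.02 and 6.92 spread widely; it passed the negative control level on 2 arrays only. The catalytic subunits Ndufs1 and Ndufv1, which hold iron-sulfur clusters and the flavin that takes electrons from NADH, had their highest group mean in germ-free insulin mice: 9.43 ± 0.16, 9.37 ± 0.03, 9.37 ± 0.13 and 9.68 ± 0.11 for Ndufs1, and 10.59 ± 0.24, 10.38 ± 0.09, 10.21 ± 0.05 and 10.63 ± 0.07 for Ndufv1 (SD, n = 3, groups in the order above).

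Ndufa4l2, a relative of Ndufa4 that is induced by low oxygen and is common in pericytes, had the other sign in germ-free mice. It measured 9.71, 8.26 and 8.96 in colonized saline mice, 9.22, 8.95 and 8.74 in colonized insulin mice, 8.68, 8.83 and 8.87 in germ-free saline mice and 8.55, 8.03 and 8.04 in germ-free insulin mice. The germ-free insulin arrays were below both the germ-free saline and the colonized insulin arrays without overlap. The differences of -0.59 ± 0.29 and -0.77 ± 0.29 did not pass the test (adjusted p = 0.631 and 0.128, limma).

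In complex II both membrane anchors were higher in germ-free mice after insulin, and the catalytic subunits Sdha and Sdhb were not called. Sdhd measured 9.23, 9.21 and 9.31 in colonized saline mice, 8.82, 9.03 and 9.02 in colonized insulin mice, 9.32, 9.28 and 8.98 in germ-free saline mice and 9.44, 9.61 and 9.55 in germ-free insulin mice. After insulin it was higher in germ-free mice by 0.58 ± 0.11 (adjusted p = 0.0119, limma). After saline the groups overlapped, with a difference of -0.06 ± 0.11 (adjusted p = 0.802, limma). Its insulin differences were -0.30 ± 0.11 in colonized and 0.34 ± 0.11 in germ-free mice, each without overlap, and the difference between them was 0.64 ± 0.16 (adjusted p = 0.222, limma).

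Sdhc, the other anchor, measured 9.04, 8.89 and 8.92 in colonized saline mice, 8.72, 8.95 and 8.72 in colonized insulin mice, 8.96, 8.91 and 9.01 in germ-free saline mice and 9.19, 9.20 and 9.29 in germ-free insulin mice. It was higher in germ-free mice after insulin by 0.43 ± 0.10 (adjusted p = 0.0216, limma), and differed by 0.01 ± 0.10 after saline. Sdha, the flavoprotein that oxidizes succinate, had its group means in another order: 9.35 ± 0.27, 9.24 ± 0.06, 8.88 ± 0.04 and 9.14 ± 0.16 (SD, n = 3) in colonized mice after saline and after insulin and in germ-free mice after saline and after insulin. Sdhb, the iron-sulfur subunit, stood at 10.84 ± 0.05, 10.76 ± 0.03, 10.65 ± 0.07 and 10.82 ± 0.06 in the same order.

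In complex III both core proteins were called, in different comparisons and with opposite signs. Uqcrc1 measured 9.76, 10.02 and 9.77 in colonized saline mice, 9.68, 9.68 and 9.49 in colonized insulin mice, 9.41, 9.44 and 9.46 in germ-free saline mice and 9.72, 9.68 and 9.78 in germ-free insulin mice. After saline it was lower in germ-free mice by 0.41 on the log2 scale (-0.41 ± 0.10, adjusted p = 0.0365, limma) with no overlap, and after insulin the difference was 0.10 ± 0.10 (adjusted p = 0.616, limma). The saline call was kept in 4 of the 12 fits that each left out 1 array. Uqcrc2 measured 8.76, 8.20 and 8.71 in colonized saline mice, 8.53, 8.80 and 8.64 in colonized insulin mice, 9.07, 9.02 and 9.04 in germ-free saline mice and 9.23, 9.23 and 9.29 in germ-free insulin mice. It was higher in germ-free mice by 0.60 ± 0.14 after insulin (adjusted p = 0.0231, limma) and by 0.49 ± 0.14 after saline (adjusted p = 0.0567, limma), without overlap in either. Colonized saline animal 2, which was highest of its group for 66 of the 84 members, was lowest of all arrays for Uqcrc2.

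Uqcrfs1, the Rieske iron-sulfur protein that takes electrons from ubiquinol, had the highest insulin difference of complex III in germ-free mice. It measured 9.82, 10.00 and 9.91 in colonized saline mice, 9.62, 9.77 and 9.71 in colonized insulin mice, 9.76, 9.78 and 9.45 in germ-free saline mice and 9.97, 10.13 and 10.13 in germ-free insulin mice. Insulin arrays were below saline arrays in colonized mice (-0.21 ± 0.11) and above them in germ-free mice (0.41 ± 0.11, adjusted p = 0.220, limma). The difference of 0.62 ± 0.16 did not pass (adjusted p = 0.224, limma).

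In complex IV the largest differences of all members were those of Cox7a1 and Cox8b, the heart, muscle and brown fat isoforms. Cox7a1 measured 7.73, 9.26 and 8.62 in colonized saline animals 1, 2 and 3, 7.18, 7.38 and 7.48 in colonized insulin mice, 8.51, 8.09 and 8.02 in germ-free saline mice and 9.17, 9.18 and 9.22 in germ-free insulin mice. After insulin it was higher in germ-free mice by 1.85 ± 0.29 on the log2 scale (adjusted p = 0.00444, limma), and after saline the groups overlapped (-0.33 ± 0.29, adjusted p = 0.537, limma). Its insulin difference was -1.19 ± 0.29 in colonized mice (adjusted p = 0.161, limma) and 0.99 ± 0.29 in germ-free mice (adjusted p = 0.256, limma), without overlap in either, and the difference between them was 2.17 ± 0.41 with a 95% interval from 1.29 to 3.06. It was above the negative control level on 1 of 3 colonized insulin and 1 of 3 germ-free saline arrays.

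Cox8b measured 7.82, 9.19 and 8.35 in colonized saline mice, 7.82, 7.61 and 7.64 in colonized insulin mice, 8.01, 7.59 and 7.37 in germ-free saline mice and 8.78, 8.56 and 8.91 in germ-free insulin mice. After insulin it was 2.08-fold higher in germ-free mice (1.06 ± 0.27, adjusted p = 0.0361, limma), a call kept in 5 of the 12 fits that each left out 1 array. The negative control level was also higher on the germ-free insulin arrays (8.25 to 8.41) than on the colonized insulin arrays (7.31 to 7.48), by nearly as much. After saline the Cox8b difference was -0.80 ± 0.27 and the groups overlapped (adjusted p = 0.102, limma). Its insulin differences were -0.76 ± 0.27 in colonized and 1.09 ± 0.27 in germ-free mice, and the difference between them was 1.86 ± 0.39 with a 95% interval from 1.01 to 2.70. None of the germ-free saline arrays was above the negative control level for Cox8b, so germ-free insulin mice were at least 1.39-fold above them. Both genes were low in colonized saline animal 1, where the brown adipocyte marker mean was 6.17, and high in animals 2 and 3, where it was 8.11 and 7.82. Ucp1 itself measured 4.02, 10.97 and 10.35 in those 3 animals, 4.08, 4.35 and 5.74 in colonized insulin mice, 10.60, 9.63 and 9.45 in germ-free saline mice and 11.59, 11.52 and 11.58 in germ-free insulin mice. The brown adipocyte markers did not all follow Ucp1. For germ-free against colonized mice after insulin, 7 of the 10 were above 0 and 3 below. Plin5 measured 8.05, 7.14 and 7.22 in colonized saline animals 1, 2 and 3. With the brown adipocyte marker mean as a covariate the Cox8b difference after insulin was -0.24 (adjusted p = 0.814, limma).

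The isoforms of most tissues had smaller differences. Cox7a2 had group means of 9.48 ± 0.33, 9.54 ± 0.02, 9.50 ± 0.19 and 9.74 ± 0.15 (SD, n = 3) in colonized mice after saline and after insulin and in germ-free mice after saline and after insulin. Cox8a stood at 11.67 ± 0.22, 11.49 ± 0.10, 11.65 ± 0.07 and 11.83 ± 0.08 in the same order. Without Cox7a1 and Cox8b the other 16 genes of complex IV still had a median of -0.180 in colonized and 0.190 in germ-free mice for insulin against saline, and 0.300 for germ-free against colonized mice after insulin. Cox4i1 and Cox5a, which form the core of the nuclear-encoded part, had means of 10.41 ± 0.47, 10.10 ± 0.12, 10.21 ± 0.12 and 10.42 ± 0.05, and of 9.83 ± 0.52, 9.59 ± 0.07, 9.59 ± 0.15 and 9.96 ± 0.04. The large SD of the colonized saline group came with animal 2, at 10.91 for Cox4i1 and 10.42 for Cox5a. Cox6c, a small membrane subunit, measured 11.97, 12.10 and 12.02, then 11.88, 11.91 and 11.76 in colonized mice, and 11.88, 11.89 and 11.85, then 12.05, 12.05 and 12.12 in germ-free mice, saline first in each. Its difference of insulin effects was 0.39 ± 0.13 (adjusted p = 0.348, limma).

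**Figure D4:**
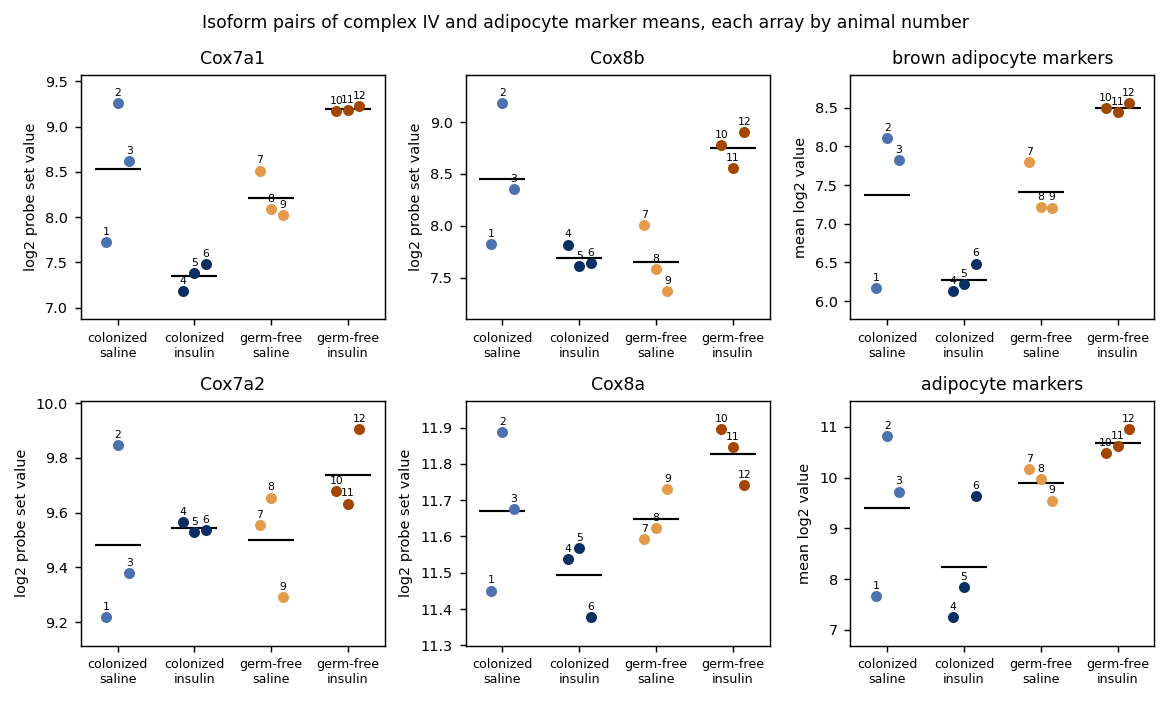
Log2 values of 2 isoform pairs of complex IV (Cox7a1 with Cox7a2, Cox8b with Cox8a) and mean log2 values of 10 brown adipocyte and 9 adipocyte markers on each array; points carry the animal number and bars are group means of 3. Cox7a1, Cox8b and the brown adipocyte markers are all high in the germ-free insulin arrays and low in colonized saline animal 1 and the colonized insulin arrays. In the germ-free saline arrays Cox8b (7.37 to 8.01) is near its colonized insulin values (7.61 to 7.82). The brown adipocyte marker means there (7.21 to 7.79) are above those of colonized insulin mice (6.13 to 6.49).

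In complex V the largest difference was that of Atp5d, the delta subunit of the central stalk. It measured 11.15, 11.27 and 11.40 in colonized saline mice, 11.42, 11.47 and 11.25 in colonized insulin mice, 12.21, 12.18 and 12.19 in germ-free saline mice and 12.08, 12.02 and 12.23 in germ-free insulin mice. All 6 germ-free arrays lay above all 6 colonized arrays. The difference was 0.92 ± 0.10 after saline, a fold of 1.89 (adjusted p = 0.000839, limma), and 0.73 ± 0.10 after insulin, a fold of 1.66 (adjusted p = 0.00305, limma). It was called after saline in all 12 fits that each left out 1 array, and its insulin differences were small (-0.08 ± 0.10 in germ-free mice).

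Atp5e, the epsilon subunit that sits beside delta in the stalk, differed the other way. It measured 7.66, 7.89 and 7.89 in colonized saline mice and 7.14, 7.53 and 7.31 in germ-free saline mice, a difference of -0.49 ± 0.13 (adjusted p = 0.0473, limma) that was called in 1 of the 12 fits with 1 array left out. After insulin it measured 7.79, 7.90 and 7.61 against 7.52, 7.59 and 7.81, and the groups overlapped (-0.13 ± 0.13, adjusted p = 0.629, limma). Atp5e was below the negative control level on all 6 germ-free arrays, and no fold is given for it.

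Atp5h, the d subunit of the outer stalk, measured 11.66, 11.71 and 11.51 in colonized insulin mice and 12.02, 11.96 and 12.16 in germ-free insulin mice, a difference of 0.42 ± 0.10 (adjusted p = 0.0244, limma), against 0.13 ± 0.10 after saline. The catalytic beta subunit Atp5b measured 12.40, 12.45 and 12.39 in colonized saline mice, 12.29, 12.30 and 12.26 in colonized insulin mice, 12.37, 12.31 and 12.33 in germ-free saline mice and 12.44, 12.51 and 12.48 in germ-free insulin mice. Its insulin differences of -0.13 ± 0.08 and 0.14 ± 0.08 had no overlap and did not pass (difference 0.27 ± 0.12, adjusted p = 0.478, limma). The alpha subunit Atp5a1 had group means of 12.55 ± 0.05, 12.33 ± 0.07, 12.41 ± 0.06 and 12.48 ± 0.05 (SD, n = 3). Atp5l, the g subunit of the membrane part, had a difference of insulin effects of 0.42 ± 0.18 (adjusted p = 0.469, limma).

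**Figure D5:**
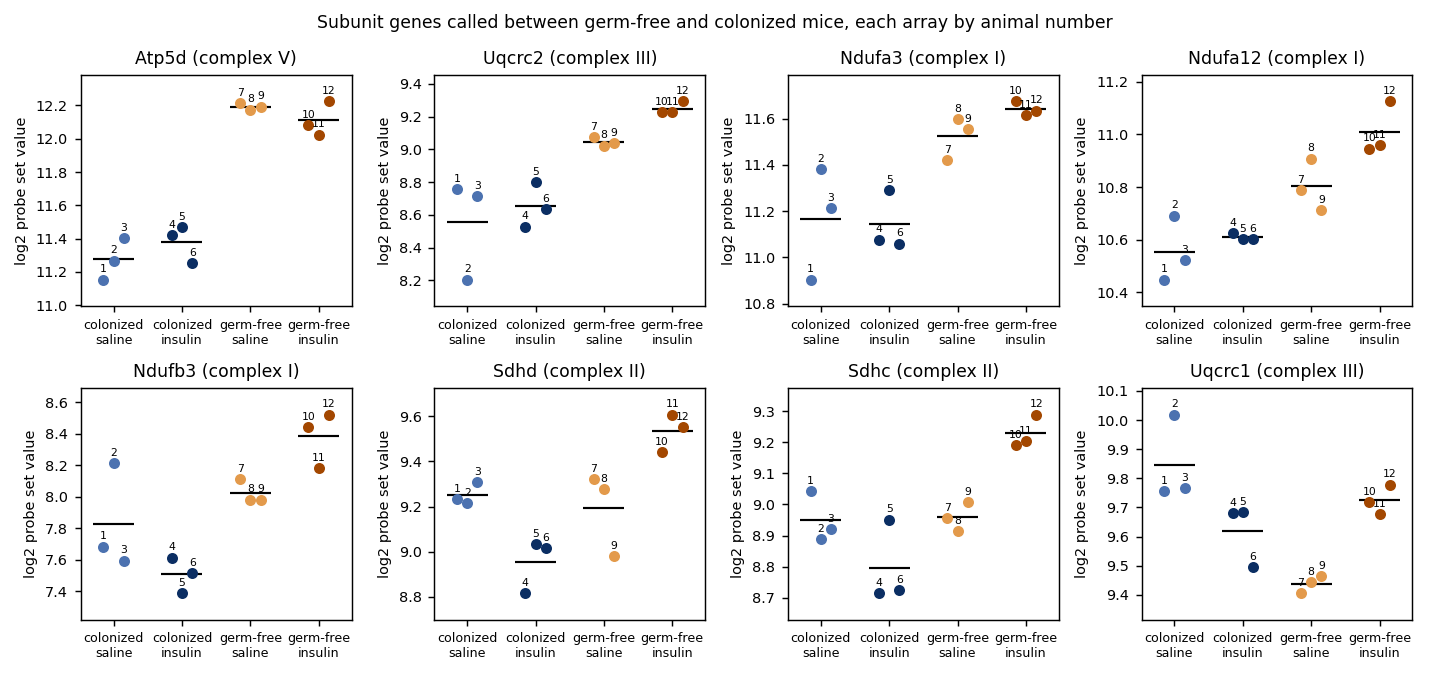
Log2 values of 8 of the subunit genes called between germ-free and colonized mice, on each array by animal number, with bars for group means of 3. Atp5d, Uqcrc2, Ndufa3 and Ndufa12 are above the colonized arrays on the germ-free arrays after both treatments, Ndufb3, Sdhd and Sdhc after insulin, and Uqcrc1 is below them after saline.

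In all, 7 members shared the pattern of a germ-free level above the colonized level without overlap after both treatments: Atp5d, Atp5g2, Atp5md, Cox7b2, Ndufa12, Ndufa3 and Uqcrc2. These are 8.33% of the members, against 3.73% of all named probe sets. No member was lower in germ-free mice without overlap after both treatments, against 7.35%. Cox7b2 is in this group with values from 3.46 to 4.27, below the negative control level on every array, and the negative controls were higher on the germ-free arrays too.

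A list of 10 catalytic or structural subunits from all complexes was also summarized. Of Ndufs1, Ndufv1, Sdha, Sdhb, Uqcrc1, Uqcrfs1, Cox4i1, Cox5a, Atp5a1 and Atp5b, 10 of 10 were below 0 for insulin in colonized mice (median -0.205) and 10 of 10 above 0 in germ-free mice (median 0.274). After saline 10 of 10 were below 0 for germ-free against colonized mice (median -0.218). After insulin 9 of 10 were above 0 (median 0.220). Of these 10 genes Uqcrc1 was called after saline and no other call was made. The list does not hold every core subunit. Uqcrc2 and Ndufv2, both called after insulin, are outside it. So is Ndufs8, whose group means of 10.79, 10.91, 10.90 and 11.04 in the order of groups above, like those of Uqcrc2, were lowest in colonized saline mice.

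Related genes were listed to place the subunits in their pathway. The counts after insulin stand beside 2.62% of all named probe sets called higher and 5.15% called lower. For germ-free against colonized mice after insulin, 11 of 16 fatty acid oxidation genes were called and all 11 were higher (median 0.47), among them the carnitine transferase Cpt1b (2.59 ± 0.48, adjusted p = 0.00911, limma; not above the negative control level on any colonized insulin array, so at least 3.19-fold) and the carnitine carrier Slc25a20 (0.96 ± 0.11, adjusted p = 0.00159, limma). The mean of Cpt1b in germ-free insulin mice was 9.06, and the negative control level on those arrays was itself 8.25 to 8.41. Slc25a20 was also the one gene of the pathway lists called for the difference of insulin effects (1.06 ± 0.15, adjusted p = 0.0462, limma). In the pyruvate dehydrogenase list, which also holds its kinases and phosphatases and the pyruvate carrier, 5 of 11 were higher (median 0.53), with the kinase Pdk4 at 1.99 ± 0.53 (adjusted p = 0.0398, limma; above the negative control level on 1 of 3 colonized insulin arrays). In the citric acid cycle 3 of 13 were higher (median 0.25): Idh3a (0.90 ± 0.12, adjusted p = 0.00266, limma), Suclg1 and Fh1.

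Among subunits named outside the rule and cytochrome c, 2 of 5 were higher after insulin, the electron carrier cytochrome c (Cycs, 0.75 ± 0.16, adjusted p = 0.0177, limma) and the acyl carrier subunit Ndufab1 (0.48 ± 0.13, adjusted p = 0.0374, limma). Of 9 inner membrane carriers and uncoupling proteins 3 were higher, namely Ucp1 (adjusted p = 0.0110, limma), Ucp3 and the phosphate carrier Slc25a3. The carrier Slc25a4 was lower (-0.40 ± 0.10, adjusted p = 0.0343, limma). After saline Slc25a3 was also called higher (0.93 ± 0.12, adjusted p = 0.00169, limma) and Slc25a4 lower (-0.57 ± 0.10, adjusted p = 0.00893, limma). Of all named probe sets 2.82% were called higher and 4.08% lower after saline. Ucp1 was below the negative control level on all 3 colonized insulin arrays, so its difference is given as at least 18.1-fold, and Ucp3 was below that level on all 12 arrays. Of 17 regulators of mitochondrial biogenesis 1 was called, the coactivator Ppargc1a, which drives mitochondrial genes in brown fat and muscle (adjusted p = 0.00606, limma). Ppargc1a was below the negative control level on all 3 colonized insulin arrays and, against that level, was at least 2.85-fold higher in germ-free mice. Its mean in germ-free insulin mice was 8.90, and the negative control level on those arrays was itself 8.25 to 8.41. Of 31 genes of these lists called after insulin in either direction, 1 (Slc25a20) was called with the adipocyte marker mean as a covariate and 0 with the brown adipocyte one. Ucp1 and Cpt1b are themselves brown adipocyte markers, so their own values enter that covariate. The share of all named probe sets called in the covariate fits is not given here, so these counts are no result about the lists. For the difference of insulin effects the median was 0.312 over the members. In the fatty acid oxidation list it was 0.66, with 15 of 16 genes above 0. It was 0.88 in the pyruvate dehydrogenase list (10 of 11 above 0) and 0.38 in the citric acid cycle (12 of 13). The assembly factors of the complexes had medians of -0.04 and 0.06 for insulin in colonized and germ-free mice and of 0.11 for the difference. Their medians for germ-free against colonized mice were -0.12 after saline, like that of the subunits, and -0.03 after insulin. After insulin 3 of 44 were called and all 3 were lower (Cox15, Bcs1l and Tmem126b), where 5.15% of all named probe sets were called lower. Cox15, which helps make the heme of complex IV, differed by -0.88 ± 0.21 (adjusted p = 0.0241, limma), and was not above the negative control level on any germ-free insulin array, so that it was lower by at least 0.59 on the log2 scale. After saline 5 of the 44 were lower and 0 higher, where 4.08% of all named probe sets were called lower. Among these 5, Ndufaf7 (-0.60 ± 0.11, adjusted p = 0.0105, limma) and Taco1 (-0.57 ± 0.11, adjusted p = 0.0119, limma) were below the negative control level on all 6 germ-free arrays. Ndufaf1 and Tmem126b were below it on all 6 as well. Tmem126b, also called after insulin, was above that level on 1 of 3 colonized insulin arrays. Of 48 proteins of the large subunit of the mitochondrial ribosome 0 were called after insulin in limma (median 0.06), and of 33 proteins of the large subunit of the cytosolic ribosome 1 was higher and 1 lower (median -0.02).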

How the data were processed

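The deposited table holds log2 intensities that the authors made from Affymetrix arrays, and the submitters' processing notes name RMA and limma without versions. The table has 28846 rows, of which 19572 are paired with 1 gene symbol by the platform annotation. No source used here names the genome build of that annotation. One mean per group was estimated over the 12 arrays and 19572 named probe sets (lmFit and eBayes in limma 3.58.1, R 4.3.3), with no filter on dim values, and p values were adjusted by Benjamini-Hochberg over all of them within each of 5 comparisons. Errors beside differences are standard errors from this fit. Precision is limited by having 3 arrays per group. Genes were named by a rule: up to 10 called members of largest change per comparison, the 3 highest and 3 lowest changes, 10 core subunits, the isoforms of other tissues, and up to 4 genes of a pathway list where called. Further members called after insulin, and those opposite without overlap, were named after their values were seen. Members, lists and rules were chosen with earlier results of these data known. Promoter windows are from RefSeq (GRCm38.p6). Alternatives were other rows, filters, normalizations, variance options, array weights, marker covariates, thresholds and leaving out each array; the brown adipocyte covariate was chosen after seeing the data.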

Additional observations from a re-analysis of the deposited data

Results flagged for a closer look

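In 11 members the 3 insulin arrays lay below the 3 saline arrays in colonized mice and above them in germ-free mice. How many of all named probe sets had this pattern without overlap is not given here. The count of 11 thus does not show whether the members stand apart from other probe sets. The difference of the insulin effects, germ-free minus colonized on the log2 scale, was 2.17 for Cox7a1, 1.86 for Cox8b, 0.64 for Sdhd, 0.62 for Uqcrfs1, 0.56 for Ndufa10, 0.52 for Ndufa9, 0.51 for Uqcrc1, 0.42 for Atp5l, 0.39 for Cox6c, 0.27 for Atp5b and 0.25 for Sdhb. These were singled out because insulin and saline arrays did not overlap within either colonization state and their order was opposite between the states. For Cox8b the germ-free saline arrays were all below the negative control level. When the difference itself was tested in limma none of the 11 passed, with adjusted p values from 0.0838 for Cox7a1 to 0.534 for Sdhb. The adipocyte and brown adipocyte marker means were also lower after insulin in colonized mice and higher in germ-free mice, and their part in these differences was not tested.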

How the results depend on the processing

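No paired analysis was possible because the animal numbers in the labels run from 1 to 12 without repeats. The median change of the members kept its sign in every alternative except 2: for germ-free against colonized mice after saline it was 0.11 with the adrenal cortex covariate, and after insulin it was -0.0339 with the brown adipocyte covariate. The share of all named probe sets called is given only for the fit described above. Counts from other fits, also those with 1 array left out, thus do not show whether the members moved apart from other probe sets. For the count of called members, array weights gave 1 (insulin in colonized mice), 4 (insulin in germ-free mice), 2 (difference), 8 (after saline) and 28 (after insulin). The compared groups alone gave 2 for insulin in germ-free mice and 1 after saline, and this was not run for the difference. After saline the count was 5 without dim probe sets, 6 with all rows, 6 with the trend and robust options, 7 with the adipocyte or brown adipocyte covariate, 1 with the adrenal cortex covariate and 7 at an adjusted p under 0.10; at that threshold the difference gave 1. After insulin it was 0 with either adipocyte covariate and 23 with the adrenal cortex covariate. Medians moved with the adrenal cortex covariate to -0.0298 (insulin in colonized mice) and 0.171 (difference), with the adipocyte covariate to 0.0921 (after insulin), and with the brown adipocyte covariate to -0.0048, 0.0318 and 0.0374 (insulin in colonized mice, in germ-free mice, and the difference). With 1 array left out, the counts ran from 0 to 1, 0 to 2, 0 to 2, 1 to 6 and 3 to 24 in the order of the comparisons, and the medians from -0.226 to -0.0617, 0.153 to 0.204, 0.248 to 0.410, -0.181 to -0.0283 and 0.201 to 0.255.

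Single genes changed sign as follows, and the cause was not tested. After saline, Sdhd was 0.0080 with a second quantile normalization and 0.0199 with median centring. Ndufv2 was 0.0290 with median centring, 0.0103 with array weights and 0.0664 with the cortex covariate, under which Ndufb10 was 0.26, Cox7a1 0.30 and Sdhc -0.0181. Cox6a2 for insulin in colonized mice was -0.11 with array weights and -0.0188, -0.25 and -0.0563 with the adipocyte, cortex and brown adipocyte covariates. Ndufa4l2 was 0.10 (difference) and 0.0938 (after insulin) with the adipocyte covariate, and 0.0987 (insulin in germ-free mice), 0.79 (difference) and 0.63 (after insulin) with the brown adipocyte covariate, under which Cox8b was -0.24 and Uqcrc1 -0.0273 after insulin. With 1 array left out, Cox6a2 ran from -0.12 to 0.33 for insulin in colonized mice, Atp5g1 from -0.12 to 0.0033 for insulin in germ-free mice, and after saline Cox7a1 from -0.73 to 0.0369, Ndufv2 from -0.0961 to 0.0216, Sdhc from -0.0220 to 0.0555 and Sdhd from -0.12 to 0.0490.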
